A study of Mus musculus with 26 samples.

Results

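Mitochondrial fatty acid oxidation was described through 10 enzymes and carriers, Cpt1a, Cpt1b, Slc25a20, Cpt2, Acadvl, Acadl, Acadm, Hadha, Hadh and Etfb, in mouse embryonic stem cells (ESCs) with and without the orphan nuclear receptor ERR beta. The genes were taken by name from a count table of 24421 genes. All 10 had enough counts to be tested, among 15238 tested genes. The pathway burns fatty acids in the mitochondrial matrix. Long-chain acyl groups are joined to carnitine at the outer membrane, carried inward, returned to coenzyme A and shortened in repeated rounds, and the electrons pass to the respiratory chain. Estrogen-related receptors are known as activators of genes of oxidative metabolism in tissues such as heart and muscle, and ERR beta, encoded by Esrrb, is also part of the pluripotency network of ESCs.

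RNA-seq counts came from 26 libraries of 14 ESC clones in 7 groups of 2 clones each. WT_mock cells kept Esrrb and carried an empty construct (clones 5-2 and 5-5). Esrrb was knocked out in the cells of the other 6 groups. They carried an empty construct (KO_mock, clones 12-1 and 12-3), wild-type ERR beta (KO_ERRb_wt, clones 8-3 and 8-4), or ERR beta deficient in DNA binding (KO_ERRb_DBDm3, clones 9-6 and 9-8). The rest carried ERR beta deficient in binding TFIIH, a general transcription factor (KO_ERRb_DBDm6, clones 10-24 and 10-26), ERR beta deficient in coactivator binding (KO_ERRb_AF2M6, clones 32-25 and 32-31), or wild-type ERR gamma, a close relative (KO_ERRg_wt, clones 14-1-10 and 14-11). Constructs were doxycycline-inducible, and all groups, controls included, received doxycycline at 2 µg/ml for 3 days. Cells grew in N2B27 medium with the MEK and GSK3 inhibitors PD and CH. The labels do not settle whether LIF was present. Each clone gave 2 libraries, or 1 in KO_ERRg_wt, and the libraries of a clone were summed, so that n = 2 clones in every group. The labels do not say that the libraries of a clone were separate cultures.

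Levels are in CPM (each library's counts set to the same total, after TMM scaling) and are given with the SD of the 2 clones. Differences are log2 fold changes ± standard error, and every adjusted p, unless another tool is named, is from edgeR's quasi-likelihood test with Benjamini-Hochberg adjustment over all tested genes. The threshold for a call was an adjusted p under 0.05. These p-values are judged against the spread between the 2 clones within a group, estimated over all groups. That spread includes differences that arose when each clone was made. Differences shared by both clones of a group are not part of it and cannot be told apart from the group's genotype or construct. In bulk RNA, fewer cells that express a gene and less RNA per cell cannot be told apart.

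Library totals ran from 21276790 to 30021667 counts. Esrrb stood at 581 ± 29.9 CPM in WT_mock and 277 ± 0.744 CPM in KO_mock, so its locus was still transcribed in the knockout, and at 420 to 530 CPM in the 5 groups with a receptor construct. KO_ERRg_wt, whose construct encodes ERR gamma and not ERR beta, was among these, with Esrrb at 471 ± 8.03 CPM. In the groups with an ERR beta construct, the counts do not separate endogenous from construct transcripts. Esrrg had 6381 and 3152 counts in the KO_ERRg_wt clones and 0 to 12 in every other clone. All 8 ESC markers were present in every group, with a summed level of 3015 to 3798 CPM, while adipocyte markers summed to at most 0.276 CPM. Relative to WT_mock, chromosome 14 genes were lower, with a median log2 shift of -0.45 to -0.52, in all 6 knockout groups. Genes of chromosomes 6 and 8 were lower in KO_ERRb_DBDm3, KO_ERRb_DBDm6, KO_ERRb_AF2M6 and KO_ERRg_wt. No member lies on these 3 chromosomes, and on the 9 chromosomes that carry members the shift was between -0.02 and 0.10.

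Per exonic length, the members spanned a wide range. Group means were highest for Hadh (60.2 to 76.5 RPKM, counts per kilobase of exon on the CPM scale), Etfb (53.5 to 83.1 RPKM) and Acadm (45.6 to 62.1 RPKM). Cpt1b was lowest at 0.932 to 12.0 RPKM. All 10 members differed among the 7 groups in a joint test (69.6% of all genes were called), although Acadm lost that call without clone 5-2 (adjusted p = 0.115) or 14-1-10 (adjusted p = 0.0765).

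**Figure D1:**
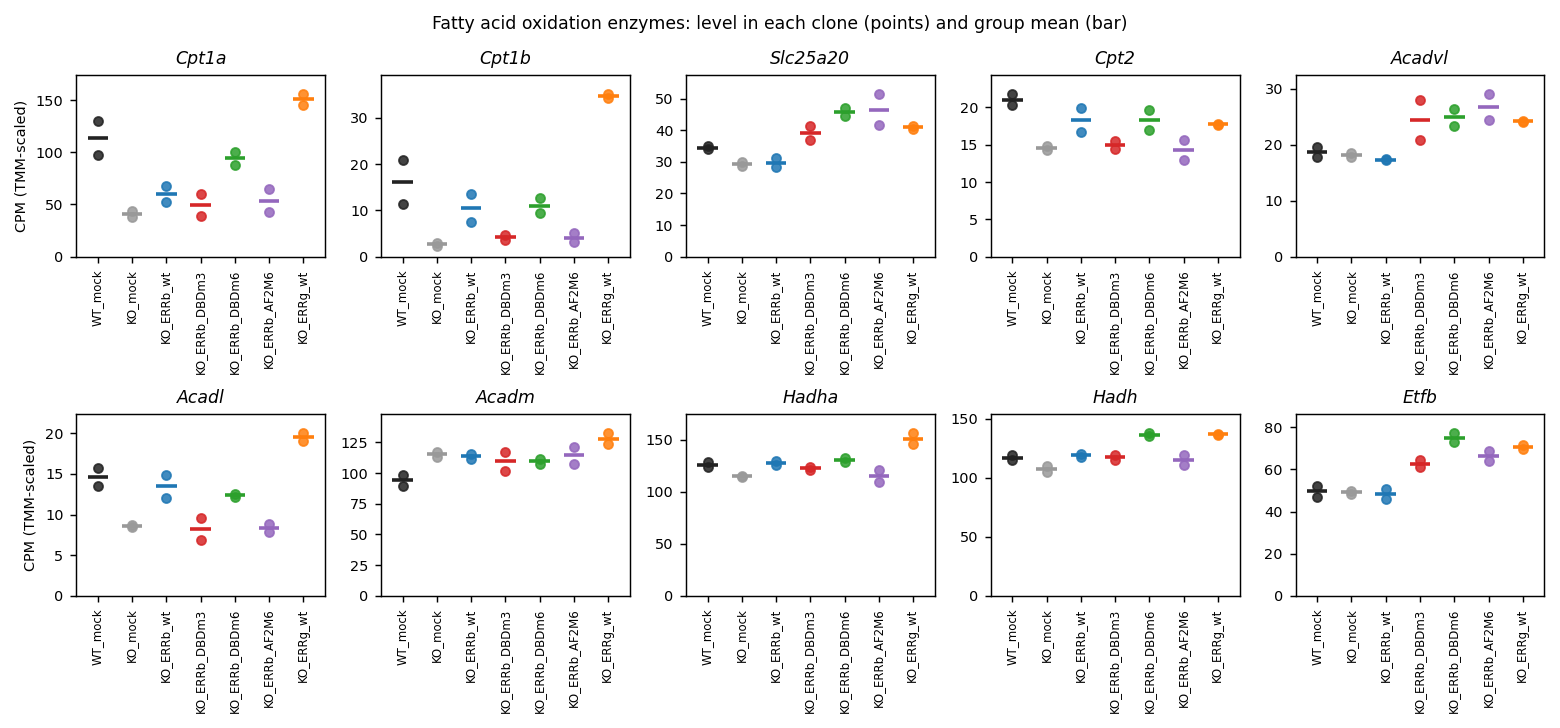
Level of each enzyme (vertical axes, CPM on TMM-scaled totals, starting at 0) in the 7 groups (horizontal axes). Points are the 14 clones and bars are the group means; Cpt1a, Cpt1b and Acadl are highest in KO_ERRg_wt and low in KO_mock, KO_ERRb_DBDm3 and KO_ERRb_AF2M6.

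Upstream sequences are shown for 3 members: Cpt1a and Acadl, which moved together and had the widest range among members with a promoter entry, and Acadm, the only member with a match to AAGGTCA, the core of ERR response elements. Each is the 250 bases before the gene's start from RefSeq (GRCm38.p6, the mm10 assembly), 5′ to 3′ on the gene's strand. Capitals mark TGACCTT, which is AAGGTCA read on the other strand.
Cpt1a, chr19:3323051-3323300, plus strand: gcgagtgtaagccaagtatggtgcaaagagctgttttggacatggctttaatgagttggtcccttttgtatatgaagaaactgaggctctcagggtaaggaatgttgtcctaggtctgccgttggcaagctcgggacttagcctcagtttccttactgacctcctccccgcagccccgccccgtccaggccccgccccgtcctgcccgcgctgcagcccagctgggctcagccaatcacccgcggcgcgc
Acadl, chr1:66863310-66863559, minus strand: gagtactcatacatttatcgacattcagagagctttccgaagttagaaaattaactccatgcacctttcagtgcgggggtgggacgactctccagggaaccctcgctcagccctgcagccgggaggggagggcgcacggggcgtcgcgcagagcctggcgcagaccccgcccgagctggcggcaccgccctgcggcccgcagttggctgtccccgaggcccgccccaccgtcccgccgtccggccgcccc
Acadm, chr3:153944644-153944893, minus strand: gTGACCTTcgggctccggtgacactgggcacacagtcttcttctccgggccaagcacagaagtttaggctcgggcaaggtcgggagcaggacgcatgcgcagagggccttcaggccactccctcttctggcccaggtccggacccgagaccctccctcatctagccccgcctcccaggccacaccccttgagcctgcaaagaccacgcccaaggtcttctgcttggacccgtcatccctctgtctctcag
Of the 10 members, 9 matched an entry by symbol. The search covered both strands of the 300 bases from 250 before to 50 after the start. AAGGTCA was found in 1 of 9 members and in 4.72% of all 32851 promoters of that length. In Acadm the match was on the other strand, and the first base of TGACCTT lay at -249 from the start. The longer forms TNAAGGTCA and TCAAGGTCA, which contain it, were in 0 of 9 members and in 1.28% and 0.423% of all promoters. These are matches of letters in a short window, not measured binding sites.

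The 2 carnitine palmitoyltransferase 1 genes fell most in the Esrrb knockout. Cpt1a, Cpt1b, Cpt2 and Acadl fell in KO_mock against WT_mock, Acadm rose, and the other 5 members were not called. That is 1 member higher and 4 lower, where 18% and 19.4% of all genes were called higher and lower. The members' median log2 fold change was -0.19, beside 0.00 over all genes.

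Markers of cell states differed in the same comparison. Of 8 ESC markers, Nanog (-0.71 ± 0.06), Klf4 (-0.82 ± 0.15) and Tfcp2l1 (-0.39 ± 0.07) fell and Pou5f1 rose (0.33 ± 0.07), with sums of 3194 to 3489 CPM in WT_mock and 3015 to 3026 CPM in KO_mock. The 4 formative markers summed to 144 to 169 CPM and 475 to 482 CPM, where 1 of them, the DNA methyltransferase gene Dnmt3b, rose (1.65 ± 0.25, adjusted p = 0.000996). Trophoblast markers (5 genes, Elf5 at 0 in both groups) summed to 56.7 CPM in both WT_mock clones and 27.4 to 30.1 CPM in KO_mock, with Krt8 and Krt18 lower and Cdx2 higher. Primitive endoderm markers (6 genes) summed to 53.3 to 53.8 CPM and 43.1 to 43.6 CPM, with Gata4, Gata6 and Sox17 lower. Fibroblast markers (6 genes, Postn at 0) summed to 2.5 to 2.93 CPM in WT_mock and 3.57 CPM in KO_mock. Of the 4 that were tested, 1 was called higher and 1 lower. In KO_ERRg_wt, where Cpt1a and Cpt1b were highest, the formative sum was 82 to 85.1 CPM. It was 225 to 347 CPM in KO_ERRb_wt and 257 to 441 CPM in the 3 groups with a mutant receptor. Trophoblast sums were 32.8 to 40.5 CPM in KO_ERRb_wt, 25.9 to 33 CPM in KO_ERRg_wt and 6.99 to 19.8 CPM with the mutants. Primitive endoderm sums were 65 to 93.5, 92.6 to 102 and 11.6 to 56.5 CPM in that order. These sums mostly follow 1 gene, Lama1 (9.81 to 98.8 CPM over all clones), as formative sums follow Dnmt3b (71.5 to 475 CPM). Against WT_mock, 5 of the 6 primitive endoderm markers lay below 0 in KO_ERRb_wt (median log2 fold change -1.03) and in KO_ERRg_wt (-0.25). Against KO_mock, 3 of the 4 formative markers lay above 0 in KO_ERRb_DBDm3, and 2 of 4 in each other mutant. Fibroblast sums were at most 6.68 CPM in any clone. The part of these cell states in the members' levels was not tested.

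Cpt1a encodes the carnitine palmitoyltransferase of the outer membrane that is most widespread, and its step sets the rate of fatty acid entry (mm10 chromosome 19, 3323301 to 3385733, plus strand). It was at 130 and 97.2 CPM in the WT_mock clones and at 38.1 and 44.2 CPM in the KO_mock clones. The groups did not overlap, and the knockout mean was 36.3% of WT_mock (-1.46 ± 0.24, adjusted p = 0.00138).

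Cpt1b encodes the form known from heart and skeletal muscle (chromosome 15, 89416405 to 89425862, minus strand). It had 20.8 and 11.4 CPM in WT_mock and 2.34 and 3.05 CPM in KO_mock. The mean was 16.7% of WT_mock (-2.58 ± 0.37, adjusted p = 0.000691), the largest difference of any member in this comparison. The Cpt1a call and the Cpt1b call stood whichever clone was left out. Per exonic length, Cpt1a exceeded Cpt1b by 4.19 and 5.73 times in the WT_mock clones and by 10.9 and 9.75 times in the KO_mock clones, so the 2 forms did not fall in proportion.

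Cpt1b counts need care. Of its exonic bases, 94.8% also belong to ChkbCpt1b, the read-through gene that joins it to its neighbour Chkb, a choline kinase, and such reads were counted for both. The read-through count was 93.1% to 96.5% of the sum of Chkb and Cpt1b counts in every clone. Chkb itself fell in KO_mock (-0.79 ± 0.14, adjusted p = 0.00171), from 27.3 ± 3.82 to 15.8 ± 0.168 CPM. The counts therefore do not say how many Cpt1b reads came from joined transcripts. Markers of striated muscle, a tissue rich in Cpt1b, summed to 27 to 40.2 CPM in the WT_mock clones and 7.55 to 8.63 CPM in KO_mock. Of these 9 genes, Des, a muscle intermediate filament gene, fell in KO_mock (-3.06 ± 0.36, adjusted p = 0.000301). The other 8 were at most 4.13 CPM in any clone, and Myog was at 0 in KO_mock. The same sum was 16.3 to 16.6 CPM in KO_ERRg_wt, where Cpt1b was highest. Their part in the Cpt1b level was not tested.

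At the inner mitochondrial membrane, Cpt2 returns the acyl group from carnitine to coenzyme A (chromosome 4, 107903982 to 107923589, minus strand). It was at 21.8 and 20.3 CPM in WT_mock and 14.3 and 14.8 CPM in KO_mock (-0.53 ± 0.12, adjusted p = 0.0062). Slc25a20, the carrier that exchanges acylcarnitine for carnitine across that membrane, was at 34.9 and 34.0 CPM against 28.6 and 30 CPM. Its groups did not overlap but it missed the threshold (-0.23 ± 0.10, adjusted p = 0.0932). It passed it without clone 32-25 (adjusted p = 0.0441) or 32-31 (adjusted p = 0.0443), and with WT_mock and KO_mock fitted alone (adjusted p = 0.0209).

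Among the acyl-CoA dehydrogenases, which open each round and differ in preferred chain length, Acadl (long chain, chromosome 1, 66830839 to 66863309, minus strand) fell from 15.7 and 13.5 CPM to 8.76 and 8.5 CPM. This was 59% of WT_mock (-0.76 ± 0.16, adjusted p = 0.00453). Acadm (medium chain) rose from 89.6 and 98.3 CPM to 113 and 117 CPM (0.29 ± 0.09, adjusted p = 0.0201). Acadvl (very long chain) had group means of 18.7 and 18.2 CPM (-0.04 ± 0.13, adjusted p = 0.852). Leaving out clone 5-2 ended the calls of Acadl (adjusted p = 0.0537), Cpt2 (adjusted p = 0.0622) and Acadm (adjusted p = 0.157). Leaving out 12-1 ended those of Cpt2 (adjusted p = 0.0534) and Acadm (adjusted p = 0.0681), and leaving out 12-3 that of Acadm (adjusted p = 0.102).

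The later steps showed smaller differences. Hadha, the alpha subunit of the trifunctional protein that carries the following reactions of long chains, was at 126 ± 3.94 CPM in WT_mock and 115 ± 0.857 CPM in KO_mock (-0.14 ± 0.06, adjusted p = 0.109). Hadh, the dehydrogenase of shorter 3-hydroxyacyl-CoAs, was at 117 ± 2.94 and 108 ± 3.6 CPM (-0.12 ± 0.06, adjusted p = 0.133). Etfb, a subunit of the flavoprotein that takes electrons from the acyl-CoA dehydrogenases, was at 49.5 ± 3.89 and 49.2 ± 1.11 CPM (-0.01 ± 0.08, adjusted p = 0.927).

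**Figure D2:**
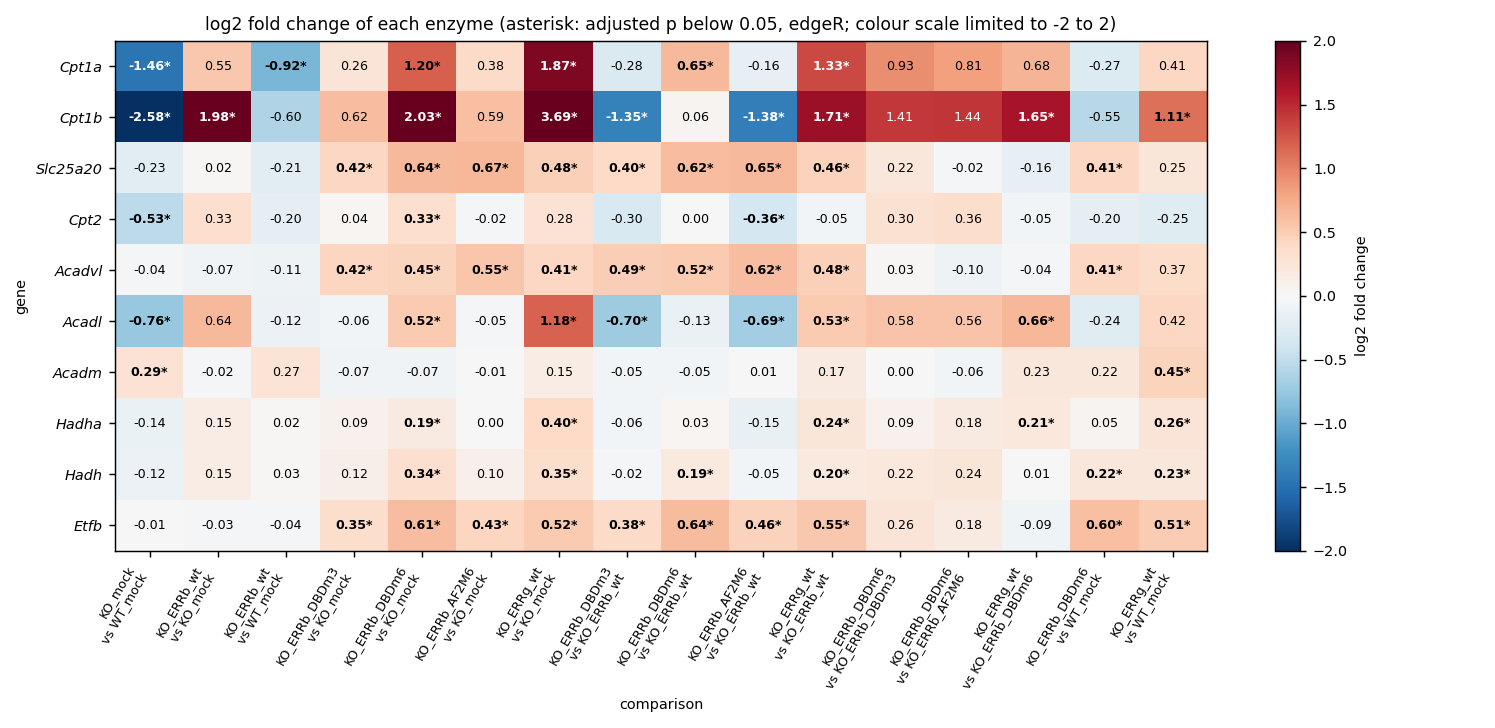
Log2 fold change of each enzyme (rows) in 16 comparisons (columns; red is higher in the first group, blue lower, colour limited to -2 to 2). Asterisks mark an adjusted p below 0.05 in edgeR; the first column shows Cpt1b at -2.58 and Cpt1a at -1.46, and the KO_ERRg_wt against KO_mock column shows 8 called members, all higher.

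Putting wild-type ERR beta back raised Cpt1b. It was at 13.6 and 7.59 CPM in the KO_ERRb_wt clones, above both KO_mock clones (1.98 ± 0.36, adjusted p = 0.0242). This was the 1 member called, where 1.07% of all genes were called higher and 0.781% lower. Acadl was at 14.9 and 12.1 CPM, also above both KO_mock clones, but was not called (0.64 ± 0.16, adjusted p = 0.0672). Cpt1a (0.55 ± 0.24, adjusted p = 0.239) and Cpt2 (0.33 ± 0.12, adjusted p = 0.168) lay above KO_mock in both clones without being called. The Cpt1b call ended without clone 12-1 (adjusted p = 0.256), 12-3 (adjusted p = 0.139), 8-3 (adjusted p = 0.221), 14-1-10 (adjusted p = 0.0512) or 14-11 (adjusted p = 0.0515), and without a filter on low counts (adjusted p = 0.0558). The Acadl difference was called without clone 9-6 (adjusted p = 0.0131) or 9-8 (adjusted p = 0.0129), with DESeq2 (adjusted p = 0.0116) and with the 2 groups alone (adjusted p = 0.0146), a fit that also called Cpt1a (adjusted p = 0.0306).

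Against WT_mock, KO_ERRb_wt had 1 member called lower and none higher in edgeR, where 5.79% and 4.49% of genes were called; 2 members had an unadjusted p below the threshold. Cpt1a was at 68.2 and 51.9 CPM, 52.9% of WT_mock (-0.92 ± 0.24, adjusted p = 0.0339). That call ended without any of 8 clones (5-2, 12-1, 12-3, 8-4, 10-24, 10-26, 14-1-10 or 14-11), with an adjusted p of 0.0502 to 0.317, and with no filter (adjusted p = 0.0972). Acadm was not called (0.27 ± 0.09, adjusted p = 0.0635) but passed without clone 9-6 (adjusted p = 0.0192) or 9-8 (adjusted p = 0.0191), and with DESeq2 (adjusted p = 0.0321). Mean Cpt1b was 65.8% of WT_mock, Cpt2 87.1% and Acadl 92.3%, none of them called.

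KO_ERRg_wt had the highest levels of Cpt1a and Cpt1b, the genes of the carnitine entry step. In KO_ERRg_wt against KO_mock 8 members rose and none fell in edgeR, where 20% and 18.3% of all genes were called higher and lower; 9 members had an unadjusted p below the threshold. The members' median was 0.44 beside 0.00 over all genes. The median log2 shift against WT_mock was -0.29 on chromosome 6 and -0.46 on chromosome 8 in KO_ERRg_wt. In KO_mock it was 0.03 and 0.02, and the part of this difference in these calls was not tested. Cpt1b reached 34.4 and 35.2 CPM (3.69 ± 0.38, adjusted p = 5.31e-05), above every other clone of the series. Cpt1a reached 156 and 146 CPM (1.87 ± 0.24, adjusted p = 0.000235) and Acadl 19 and 20 CPM (1.18 ± 0.16, adjusted p = 0.000321), likewise above every other clone. Hadha rose to 156 and 146 CPM (0.40 ± 0.06, adjusted p = 0.000735). Hadh (0.35 ± 0.06), Etfb (0.52 ± 0.08), Slc25a20 (0.48 ± 0.10) and Acadvl (0.41 ± 0.14) also rose. Cpt2 was at 17.7 CPM in both clones and was not called (0.28 ± 0.12, adjusted p = 0.0893), nor was Acadm (0.15 ± 0.09, adjusted p = 0.179). Acadvl lost its call without 12-1, 12-3, 14-1-10 or 14-11 (adjusted p = 0.102 to 0.15), and Cpt2 (adjusted p = 0.00918) and Acadm (adjusted p = 0.0124) were called with the 2 groups fitted alone.

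Set against KO_ERRb_wt, also Esrrb knockout cells, KO_ERRg_wt again had 8 members higher and none lower, where 13.5% and 11.9% of genes were called. The 2 groups differed on chromosomes 6 and 8, where the median log2 shift against WT_mock was -0.29 and -0.46 in KO_ERRg_wt. In KO_ERRb_wt that shift was 0.02 on both, and its part in these calls was not tested. Cpt1b (1.71 ± 0.34, adjusted p = 0.00447) and Cpt1a (1.33 ± 0.24, adjusted p = 0.00259) differed most. Per exonic length, Cpt1a exceeded Cpt1b by only 3.05 and 2.79 times in KO_ERRg_wt. The calls of Cpt1b, Cpt1a and Etfb (0.55 ± 0.08, adjusted p = 0.000598) stood whichever clone was left out. The other 5 lost theirs without at least 2 clones. These were 8-4 and 14-11 for Slc25a20 (adjusted p up to 0.0776), 8-4 and 14-1-10 for Hadha (up to 0.156), and 8-3, 8-4, 14-1-10 and 14-11 for Acadvl (up to 0.119) and Hadh (up to 0.147). For Acadl they were 12-1, 12-3, 8-4, 14-1-10 and 14-11 (adjusted p up to 0.231). Hadh was also not called with no filter (adjusted p = 0.0599) or with scaling factors computed without chromosomes 6, 8 and 14 and Rn45s (adjusted p = 0.0639).

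A comparison of KO_ERRg_wt with WT_mock, added after the values had been seen, called 5 members higher and none lower (14.2% and 13.9% of genes). Cpt1b was 216% of WT_mock (1.11 ± 0.33, adjusted p = 0.0297), and Acadm (0.45 ± 0.09), Hadha (0.26 ± 0.06), Hadh (0.23 ± 0.06) and Etfb (0.51 ± 0.08) were the others. Cpt1a at 133% (adjusted p = 0.214) and Acadl at 133% (adjusted p = 0.0742) were not called, although both KO_ERRg_wt clones lay above both WT_mock clones. Cpt1b lost its call without 5-5, 14-1-10 or 14-11 (adjusted p = 0.107 to 0.191), with no filter (adjusted p = 0.0717) and with the 2 groups alone (adjusted p = 0.0956). That 2-group fit called Slc25a20 (adjusted p = 0.0189), Acadl (adjusted p = 0.0105) and Acadvl (adjusted p = 0.00747) higher and Cpt2 lower (adjusted p = 0.0382), so that 7 were higher and 1 lower. Acadvl was also called with DESeq2 (adjusted p = 0.0442) and, like Acadl, without 9-6 or 9-8 (adjusted p = 0.0118 to 0.0216), and Slc25a20 without 32-25 or 32-31 (adjusted p = 0.043 and 0.0427). Hadha lost it without 5-5 or 14-1-10 (up to 0.117), and Hadh without 5-2, 5-5, 14-1-10 or 14-11 (up to 0.098).

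With the ERR beta mutants, 7 of the 10 members were described by 2 patterns, and Acadm, Hadha and Hadh were not assigned to either. Hadha still followed Cpt1b across the 14 clones (Pearson r = 0.915), more closely than Cpt2 did (r = 0.779). Its highest group mean was only 1.32 times its lowest. Cpt1a, Cpt1b, Cpt2 and Acadl were near the KO_mock level with the DNA-binding and coactivator-binding mutants and nearer to WT_mock with the TFIIH-binding mutant. Cpt1b nevertheless lay above both KO_mock clones in KO_ERRb_DBDm3 and KO_ERRb_AF2M6, without being called. Cpt1a in these groups also overlapped KO_ERRb_wt. It was not called against KO_ERRb_wt in KO_ERRb_DBDm3 (-0.28 ± 0.24, adjusted p = 0.387) or KO_ERRb_AF2M6 (-0.16 ± 0.24, adjusted p = 0.604). Slc25a20, Acadvl and Etfb were higher with all 3 mutants than in KO_mock. The 4 comparisons with KO_mock share its clones.

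With the DNA-binding deficient KO_ERRb_DBDm3, 3 members rose against KO_mock and none fell in edgeR (12.4% and 13.3% of genes; the same 3 members had an unadjusted p below the threshold). They were Slc25a20, Acadvl and Etfb. Cpt1b was at 4.65 and 3.64 CPM (0.62 ± 0.37, adjusted p = 0.244) and Cpt1a at 60 and 38.5 CPM, its lower clone within the KO_mock range (0.26 ± 0.24, adjusted p = 0.457). Acadl was at 9.62 and 6.92 CPM, on either side of KO_mock (-0.06 ± 0.16, adjusted p = 0.821). Against KO_ERRb_wt, Cpt1b (-1.35 ± 0.35, adjusted p = 0.0133) and Acadl (-0.70 ± 0.16, adjusted p = 0.0073) were lower and Slc25a20, Acadvl and Etfb higher (16.8% and 15.3% of genes).

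The 2 lower calls against KO_ERRb_wt ended without clone 8-3 (adjusted p = 0.134 for Cpt1b and 0.0726 for Acadl), and that of Cpt1b also without 9-8 (adjusted p = 0.108). None of the 5 calls against KO_ERRb_wt and none of the 3 against KO_mock was made with only the 2 groups in the fit.

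With the coactivator-binding deficient KO_ERRb_AF2M6, 3 members rose against KO_mock and none fell in edgeR (18% and 19.1% of genes; 3 members had an unadjusted p below the threshold), again Slc25a20, Acadvl and Etfb. Cpt1b was at 5.04 and 3.10 CPM (0.59 ± 0.37, adjusted p = 0.23), Cpt1a at 64.5 and 42.6 CPM (0.38 ± 0.24, adjusted p = 0.233) and Acadl at 8.89 and 7.82 CPM (-0.05 ± 0.16, adjusted p = 0.846). Against KO_ERRb_wt, 3 members were higher and 3 lower (20.3% and 22.8% of genes). The lower ones were Cpt1b (-1.38 ± 0.35, adjusted p = 0.00855), Acadl (-0.69 ± 0.16, adjusted p = 0.00551) and Cpt2 (-0.36 ± 0.12, adjusted p = 0.0329). Without clone 8-3 all 3 of these calls ended (adjusted p = 0.0974, 0.0607 and 0.257 in that order). Without 32-31 those of Cpt1b (adjusted p = 0.0896) and Cpt2 (adjusted p = 0.23) ended, and Cpt2 lost its call also without 12-3, 14-1-10 or 14-11 (adjusted p = 0.0518 to 0.0522), and with the 2 groups alone (adjusted p = 0.107). Hadha (-0.15 ± 0.06, adjusted p = 0.076) was called lower without 32-25 (adjusted p = 0.0361) and with scaling factors computed without chromosomes 6, 8 and 14 and Rn45s (adjusted p = 0.033).

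With the TFIIH-binding deficient KO_ERRb_DBDm6, 9 members rose against KO_mock, all except Acadm, and none fell (20.8% and 20.6% of genes). Cpt1b was at 9.42 and 12.6 CPM (2.03 ± 0.36, adjusted p = 0.00128) and Cpt1a at 87.7 and 101 CPM (1.2 ± 0.24, adjusted p = 0.00247). Both KO_ERRb_DBDm6 clones were above both KO_mock clones for each gene. Acadl was at 12.2 and 12.5 CPM (0.52 ± 0.16, adjusted p = 0.0245), Cpt2 at 17 and 19.6 CPM (0.33 ± 0.12, adjusted p = 0.0455) and Hadh at 135 and 138 CPM (0.34 ± 0.06, adjusted p = 0.000926). Hadha rose by the smallest amount (0.19 ± 0.06, adjusted p = 0.0355).

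Of these 9 calls, 5 stood whichever clone was left out (Cpt1a, Cpt1b, Slc25a20, Hadh and Etfb). Acadl and Hadha lost theirs without 12-1, 12-3, 10-24 or 10-26 (adjusted p up to 0.112 and 0.176), and Acadvl without 12-1, 12-3 or 10-26 (up to 0.133). Cpt2 lost its call without 5-2, 5-5, 12-1, 12-3, 10-26, 14-1-10 or 14-11 (up to 0.286). Cpt2 (adjusted p = 0.0752) and Hadha (adjusted p = 0.0913) also lost theirs with those scaling factors, and with no filter (adjusted p = 0.0556 and 0.0572). The 2 libraries of clone 10-26 differed 2.2-fold in Cpt1b (7.94 and 17.5 CPM), the widest gap between libraries of 1 clone for any member.

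Against KO_ERRb_wt, 5 members were higher in KO_ERRb_DBDm6 and none lower in edgeR (19.1% and 20% of genes; 5 had an unadjusted p below the threshold). Cpt1a was 1 of them (0.65 ± 0.24, adjusted p = 0.0482), a call that ended without any of 10 clones, all except 9-6, 9-8, 32-25 and 32-31 (adjusted p = 0.0506 to 0.262). Hadh was another (0.19 ± 0.06, adjusted p = 0.021), and lost its call without 8-4, 10-24 or 10-26 (up to 0.108). With scaling factors without those chromosomes neither Cpt1a (adjusted p = 0.0621) nor Hadh (adjusted p = 0.0611) was called, and Cpt1a was not called with no filter (adjusted p = 0.132). Cpt1b (0.06 ± 0.33, adjusted p = 0.915), Cpt2 (0.00 ± 0.12, adjusted p = 0.998) and Acadl (-0.13 ± 0.16, adjusted p = 0.562) were not called.

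Whether the TFIIH-binding mutant itself differed from the other mutants was tested in comparisons added after the values had been seen. Against KO_ERRb_DBDm3, edgeR called 0 of the 10 members (1.63% of all genes were called higher and 1.42% lower), with 7 at an unadjusted p below 0.05. Cpt1b was higher by 1.41 ± 0.35 (adjusted p = 0.0562) and Cpt1a by 0.93 ± 0.24 (adjusted p = 0.0602), with both KO_ERRb_DBDm6 clones above both KO_ERRb_DBDm3 clones. DESeq2 called 5 members, higher in KO_ERRb_DBDm6, and 1278 of all genes in either direction, where edgeR called 466. Cpt1a was also called without clone 9-6 (adjusted p = 0.0195) and Cpt1b without 8-3 or 8-4 (adjusted p = 0.0462 and 0.0461). Acadl (adjusted p = 0.00597) and Hadh (adjusted p = 0.0347) were called without 9-6. Against KO_ERRb_AF2M6, edgeR called 0 members and 0 of the 15238 genes in either direction (0% higher and 0% lower), with 7 members and 2119 genes at an unadjusted p below 0.05, and DESeq2 called 3 members and 178 genes. There Cpt1b differed by 1.44 ± 0.35 (adjusted p = 0.23) and Cpt1a by 0.81 ± 0.24 (adjusted p = 0.251). Whether Cpt1a and Cpt1b were called different between these mutants therefore depended on the test.

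KO_ERRg_wt against KO_ERRb_DBDm6, also added afterwards, called 3 members higher and none lower (11% and 8.33% of genes). They were Cpt1b (1.65 ± 0.34, adjusted p = 0.00787), Acadl (0.66 ± 0.16, adjusted p = 0.0171) and Hadha (0.21 ± 0.06, adjusted p = 0.039). Cpt1b lost its call without 10-24 (adjusted p = 0.0791), and Acadl without 10-24, 10-26, 14-1-10 or 14-11 (up to 0.108). Hadha lost it without any of 10 clones, all except 9-6, 9-8, 32-25 and 32-31 (up to 0.273). Cpt1a was not called (0.68 ± 0.24, adjusted p = 0.0665), with both KO_ERRg_wt clones above both KO_ERRb_DBDm6 clones. It was called with DESeq2 (adjusted p = 0.0218), with the 2 groups alone (adjusted p = 1.87e-05), and without 9-6 (adjusted p = 0.0466) or 9-8 (adjusted p = 0.0465). Acadm was called with the 2 groups alone (adjusted p = 0.00841) and without 9-6 or 9-8 (adjusted p = 0.0332 for each), and Hadha was not called with no filter (adjusted p = 0.0721).

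Against WT_mock, KO_ERRb_DBDm6 had 4 members higher and none lower (22.3% and 24% of genes): Slc25a20, Acadvl, Hadh and Etfb. Acadvl lost this call without 5-2, 5-5 or 10-26 (adjusted p up to 0.149) and Hadh without 5-5 or 10-26 (up to 0.0631). Acadm (0.22 ± 0.09, adjusted p = 0.0533) was called higher in 9 alternative fits. These were DESeq2 (adjusted p = 0.0358), its size factors in edgeR (adjusted p = 0.0392), no filter (adjusted p = 0.0499), the 2 groups alone (adjusted p = 0.0215), limma voom with the libraries apart (adjusted p = 0.0403), and the fits without 9-6, 9-8, 32-25 or 32-31 (adjusted p = 0.0185 to 0.0423).

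The library numbers were looked at after the values had been seen. Both KO_ERRg_wt libraries carry the number 2 in the count table. In 5 of the 12 clones with a pair of libraries (8-3, 9-6, 10-24, 10-26 and 32-25), library 2 was above library 1 for each of Cpt1a, Cpt1b and Acadl. With only library 2 of each clone in the fit, KO_mock against WT_mock had 1 member higher and 4 lower. KO_ERRg_wt against KO_mock had 8 higher, and both counts equal those from the summed libraries. Shares of all genes called in this fit are not given, so the counts in this paragraph are not set against them. KO_ERRg_wt against KO_ERRb_DBDm6 then had 0 (Cpt1b 1.27, adjusted p = 0.0763; Acadl 0.43, adjusted p = 0.199; Hadha 0.21, adjusted p = 0.075), and Cpt1b was not called against WT_mock (adjusted p = 0.0648). Against KO_ERRb_wt, KO_ERRg_wt had 5 higher, without Acadl (adjusted p = 0.115), Hadha (adjusted p = 0.0518) and Hadh (adjusted p = 0.0544). The Cpt1b call of KO_ERRb_wt against KO_mock (adjusted p = 0.0909) and all lower calls of KO_ERRb_DBDm3 and KO_ERRb_AF2M6 against KO_ERRb_wt ended (adjusted p = 0.0798 to 0.274). So did the Cpt1a call of KO_ERRb_wt against WT_mock (adjusted p = 0.175), those of Cpt1a (adjusted p = 0.0686) and Hadh (adjusted p = 0.0785) in KO_ERRb_DBDm6 against KO_ERRb_wt, and that of Hadha in KO_ERRb_DBDm6 against KO_mock (adjusted p = 0.0661). In the joint test Cpt2 (adjusted p = 0.0689) and Acadm (adjusted p = 0.0551) were then not called.

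**Figure D3:**
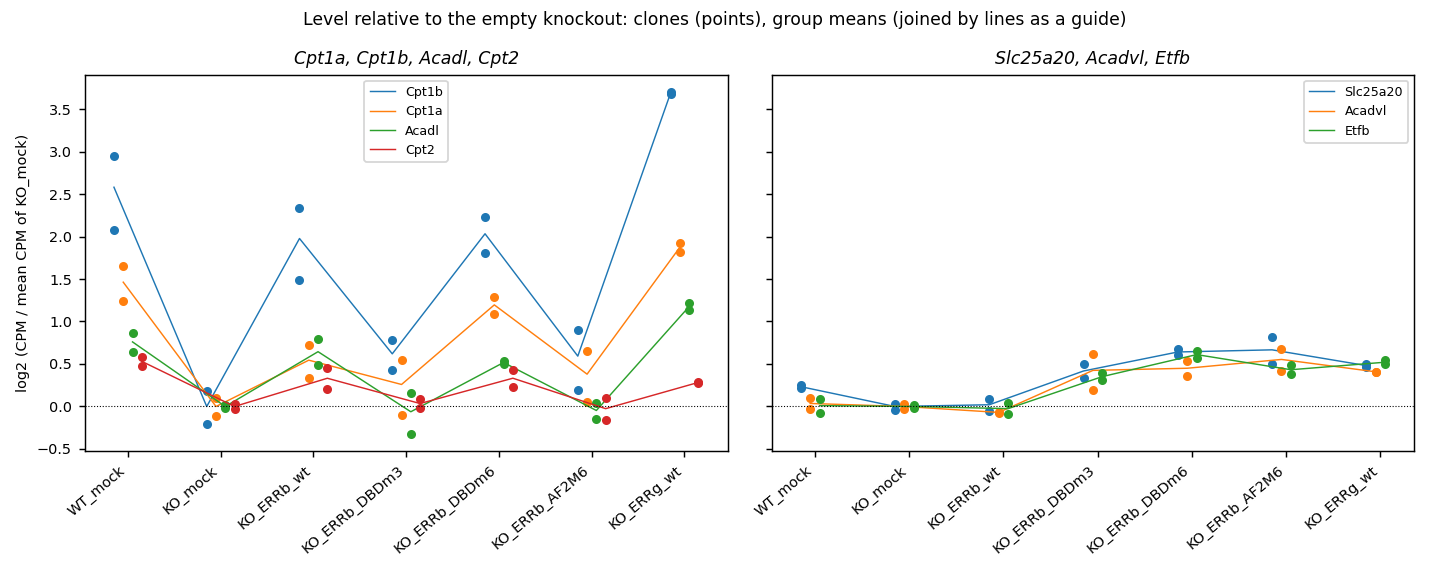
Log2 ratio of each clone's CPM to the KO_mock mean (vertical axis) in the 7 groups (horizontal axis) for Cpt1a, Cpt1b, Acadl and Cpt2 (left) and Slc25a20, Acadvl and Etfb (right). Points are clones and lines join group means as a guide; the left genes rise and fall between groups, while the right genes lie near 0 in KO_mock and KO_ERRb_wt and above it in the 3 mutants and KO_ERRg_wt.

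Slc25a20, Acadvl and Etfb followed the second pattern. Etfb (chromosome 7, 43444072 to 43457800, plus strand) was at 46.1 to 52.3 CPM in all clones of WT_mock, KO_mock and KO_ERRb_wt. It was at 61.2 and 64.4 CPM in KO_ERRb_DBDm3, 73.1 and 77.1 CPM in KO_ERRb_DBDm6, 64.0 and 68.7 CPM in KO_ERRb_AF2M6, and 69.5 and 71.6 CPM in KO_ERRg_wt. These 4 groups did not overlap the first 3. Against KO_mock the differences were 0.35 ± 0.08 (adjusted p = 0.00721), 0.61 ± 0.08 (adjusted p = 0.000142), 0.43 ± 0.08 (adjusted p = 0.00129) and 0.52 ± 0.08 (adjusted p = 0.000461) in that order. The first of these lost its call without 12-1 (adjusted p = 0.064).

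Slc25a20 (chromosome 9, 108662098 to 108684641, plus strand) was at 28.2 to 34.9 CPM in the clones of the first 3 groups and 37.0 to 51.5 CPM in those of the other 4. It rose against KO_mock by 0.42 ± 0.10 in KO_ERRb_DBDm3 (adjusted p = 0.0129), 0.64 ± 0.10 in KO_ERRb_DBDm6 (adjusted p = 0.000611) and 0.67 ± 0.10 in KO_ERRb_AF2M6 (adjusted p = 0.00054). The KO_ERRb_DBDm3 call ended without 12-1, 12-3 or 9-8 (adjusted p = 0.0572 to 0.0929).

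Acadvl (chromosome 11, 70010183 to 70015428, minus strand) was at 17.2 to 19.5 CPM in the first 3 groups and 20.9 to 29.1 CPM in the other 4. Its rise in KO_ERRb_DBDm3 (0.42 ± 0.13, adjusted p = 0.0382) rested on clone 9-8, at 28 CPM against 20.9 CPM in 9-6, and was 0.20 without it (adjusted p = 0.302). It was also not called without 5-2, 5-5, 12-1, 12-3, 8-3, 8-4, 14-1-10 or 14-11 (adjusted p = 0.0503 to 0.176). The rise in KO_ERRb_AF2M6 (0.55 ± 0.13, adjusted p = 0.00752) was not called without 12-3 (adjusted p = 0.0561) or 32-31 (adjusted p = 0.0659).

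Against KO_ERRb_wt the same 3 genes were higher in all 4 groups. In KO_ERRb_AF2M6, for example, Slc25a20 was higher by 0.65 ± 0.10 (adjusted p = 0.000524), Acadvl by 0.62 ± 0.13 (adjusted p = 0.00336) and Etfb by 0.46 ± 0.08 (adjusted p = 0.000751). In KO_ERRb_DBDm3 the call of Acadvl ended without 8-3, 8-4 or 9-8 (adjusted p up to 0.128) and that of Slc25a20 without 8-4 or 9-8 (up to 0.0894), and in KO_ERRb_DBDm6 that of Acadvl without 8-4 or 10-26 (up to 0.0805).

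The 4 groups in which these genes were higher are those in which genes of chromosomes 6 and 8 were lower. The median log2 shift against WT_mock was -0.57, -0.81, -0.82 and -0.29 on chromosome 6 and -0.47, -0.44, -0.48 and -0.46 on chromosome 8, in KO_ERRb_DBDm3, KO_ERRb_DBDm6, KO_ERRb_AF2M6 and KO_ERRg_wt. In KO_mock and KO_ERRb_wt both chromosomes shifted by 0.02 to 0.03. Its part in the levels of Slc25a20, Acadvl and Etfb was not tested.

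Acadm (chromosome 3, 153922353 to 153944643, minus strand) and Hadha (chromosome 5, 30118304 to 30154980, minus strand) varied little. The highest group mean of Acadm was 1.36 times the lowest, and WT_mock was the lowest group. For Hadha that ratio was 1.32, and for Hadh (chromosome 3, 131233420 to 131272101, minus strand) 1.27. It was 12.9 for Cpt1b, 3.66 for Cpt1a and 2.36 for Acadl. Over the 10 members, 3 or 4 of the 6 pairs of neighbouring groups overlapped in the order of levels.

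Across the 14 clones, log2 CPM of Cpt1b followed Acadl (Pearson r = 0.963), Cpt1a (r = 0.948) and Hadha (r = 0.915). Slc25a20 followed Acadvl (r = 0.922) and Etfb (r = 0.912), but not Cpt1b (r = 0.149). Members, predicted genes and the read-through ChkbCpt1b, whose reads are shared with Cpt1b, were left out of the search for other genes with a like pattern. Of the rest, the 5 tested genes closest to Cpt1b were Sema4g (r = 0.985), Camk2n1 (r = 0.974), Srgap1 (r = 0.974), Sh2d4a (r = 0.972) and Tubb2a (r = 0.969). For Cpt1a they were Phyhd1 (r = 0.986), Gm2a (r = 0.983), Hes1 (r = 0.981), Acads (r = 0.978) and S100a1 (r = 0.973). These describe n = 14 clones, of which pairs share a construct, and were picked as the highest of many.

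Other genes of fatty acid metabolism, 52 by name of which 50 were tested, were followed by role. In KO_mock against WT_mock, where 18% of all genes were called higher and 19.4% lower, 0 of 20 further mitochondrial oxidation genes rose and 11 fell, with a median of -0.36 beside 0.00 over all genes. Acat1, the mitochondrial acetoacetyl-CoA thiolase, went from 25.0 to 12.1 CPM (-1.05 ± 0.12, adjusted p = 0.000277). Mlycd, which removes the CPT1 inhibitor malonyl-CoA, went from 15 to 5.61 CPM (-1.42 ± 0.21, adjusted p = 0.000771). Acad10, an acyl-CoA dehydrogenase family member, also fell (-1.01 ± 0.18, adjusted p = 0.00175). The 11 also count Acacb (-0.56 ± 0.11, adjusted p = 0.0032), which makes the inhibitor malonyl-CoA rather than oxidising fatty acids. Of 8 genes of fatty acid activation and uptake, 3 rose and 3 fell, among them Acsl1, an acyl-CoA synthetase (-0.38 ± 0.06, adjusted p = 0.00126). Of 12 peroxisomal genes 2 fell, a share near that of all genes, and none rose. Of 10 tested regulators 3 rose and none fell.

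In KO_ERRb_wt against KO_mock, Acat1 was the 1 gene of the 50 called (0.62 ± 0.12, adjusted p = 0.0333), beside 1.07% of all genes higher and 0.781% lower, and 38 of the 50 lay above 0. In KO_ERRg_wt against KO_mock, 12 of the 20 mitochondrial genes rose and none fell (20% and 18.3% of all genes; median 0.44 beside 0.00). Acat1 rose to 26.7 CPM (1.15 ± 0.12, adjusted p = 6.9e-05), and so did Acads, the short-chain acyl-CoA dehydrogenase, to 83.9 CPM (0.58 ± 0.10, adjusted p = 0.000981). Of the other genes, Acss1, a mitochondrial acetyl-CoA synthetase, rose (0.98 ± 0.09, adjusted p = 3.5e-05) and Rxra, a retinoid receptor that pairs with PPARs, fell (-1.09 ± 0.14, adjusted p = 0.000173).

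With the mutants, fewer of the 20 mitochondrial genes were called against KO_mock than with ERR gamma. In KO_ERRb_DBDm3 2 rose and 1 fell (12.4% and 13.3% of all genes), in KO_ERRb_DBDm6 7 rose and 2 fell (20.8% and 20.6%), and in KO_ERRb_AF2M6 5 rose and 3 fell (18% and 19.1%). The counts in KO_ERRb_DBDm3 and KO_ERRb_AF2M6 are near those shares. Medians were 0.08, 0.26 and 0.05. Acacb, the acetyl-CoA carboxylase that makes malonyl-CoA at mitochondria, fell in all 3, by 0.62 ± 0.11, 0.68 ± 0.11 and 1.03 ± 0.11 on the log2 scale. Acss1 rose in all 3, most in KO_ERRb_DBDm6, from 52.7 to 130 CPM (1.31 ± 0.09). Acad11, another acyl-CoA dehydrogenase, rose in KO_ERRb_DBDm3 (0.94 ± 0.14, adjusted p = 0.000943), and Acad10 fell in KO_ERRb_AF2M6 (-1.17 ± 0.18, adjusted p = 0.000601). Among the regulators, Ppargc1a, a coactivator of ERRs in oxidative tissues, was at most 0.0569 CPM and Pparg at most 0.0705 CPM in any group mean. Esrra, which encodes ERR alpha, was at 24.9 to 27.5 CPM in all 7.

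**Figure D4:**
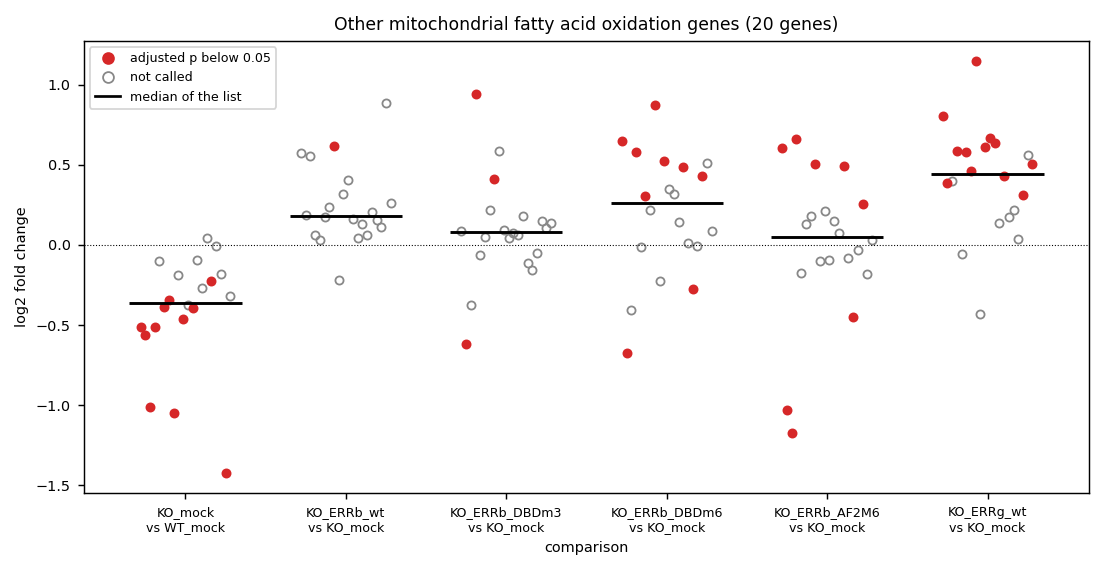
Log2 fold change (vertical axis) of the 20 further mitochondrial oxidation genes in 6 comparisons (horizontal axis). The list includes Acacb, which makes the CPT1 inhibitor malonyl-CoA. Each point is a gene (filled where the adjusted p was below 0.05) and bars are list medians; 11 genes are filled and below 0 in KO_mock against WT_mock, and 12 are filled and above 0 in KO_ERRg_wt against KO_mock.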

How the data were processed

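Strand-specific RNA-seq of ribosome-depleted total RNA, sequenced as single-end reads of 100 bp, was described per the labels' protocols. Per the submitters' processing notes, the authors used STAR 2.7.8a and mm10. Deposited values are raw counts per gene symbol over exons on the reverse strand, made with featureCounts (2.0.10 per those notes, 2.0.1 per the file headers). The headers record that reads in overlapping genes were counted for each and multi-mapping reads were not counted.

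Libraries were summed within clones, giving 25103562 to 54105869 counts per clone. Genes were filtered with filterByExpr, scaled by TMM and fitted with a robust quasi-likelihood model to all 14 clones in edgeR 4.0.16 (R 4.3.3), a script tested on simulated data. Alternatives used DESeq2 1.42.0, limma 3.58.1 voom, other scaling, no filter, the 2 groups alone, each clone left out, and, added after the data were seen, 1 library per clone. The members, lists and comparisons were chosen with earlier results of these data known, and 5 comparisons were added after the values were seen. Named genes were the members, Esrrb and Esrrg, Chkb and its read-through, up to 4 other pathway genes with the smallest p among those called per comparison, and the 5 genes most correlated with Cpt1b and with Cpt1a (log2 of CPM + 0.5, mean log2 CPM of at least 1), leaving out members, predicted genes and the read-through. Ppargc1a, Pparg and Esrra were added after their values were seen.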

Additional observations from a re-analysis of the deposited data

How the results depend on the processing

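All counts in this section are of members called, of 10, and the number of all genes called also differed between tools. Where the number over all genes is not given, as with each clone left out, the counts are not set against it. Those counts are not read as results about the members. No called member changed direction under any alternative run. For KO_ERRb_wt against KO_mock, 1 was higher. DESeq2 gave 2, no filter on low counts 0, and the 2 groups alone 3. Over all genes, edgeR called 282 in either direction there and DESeq2 930. Against WT_mock, KO_ERRb_wt had 0 higher and 1 lower, while DESeq2 gave 1 higher and no filter 0 lower. Over all genes, edgeR then called 1567 and DESeq2 2209. With the 2 groups alone, KO_ERRb_DBDm3 had 0 higher against KO_mock (3 in the fit of 14 clones), and 0 higher and 0 lower against KO_ERRb_wt (3 and 2 in that fit). KO_ERRg_wt had 5 higher than KO_ERRb_DBDm6 (3 in that fit, 4 with DESeq2, 2 with no filter) and 7 higher and 1 lower than WT_mock (5 and 0 in that fit). TMM without chromosomes 6, 8 and 14 and Rn45s left 3 of 5 higher for KO_ERRb_DBDm6 against KO_ERRb_wt, and moved the median of all genes by -0.05 to 0.01 (log2) over the comparisons. DESeq2 size factors moved it by -0.01 to 0.02. KO_ERRb_DBDm6 had 5 higher than KO_ERRb_DBDm3 and 3 higher than KO_ERRb_AF2M6 with DESeq2 (0 and 0 in edgeR). The cause of these changes was not tested. The 2-group fits have fewer clones and also their own filter, scaling and estimate of the spread.

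Replicate numbers name the libraries within a clone. Over 66 pairs of clones the same-numbered libraries' deviations had r of -0.15 to 0.44 (median 0.01), over 0.1 in 11 pairs. The main fit summed the libraries and did not use the replicate number, although a shared effect need not show in every pair. In limma voom with libraries apart, clone as a random effect (correlation 0.475) and the replicate number as a block, KO_ERRb_wt had 0 higher than KO_mock and 1 higher than WT_mock, and KO_ERRb_DBDm6 had 2 higher than KO_ERRb_DBDm3 (Cpt1a, adjusted p = 0.0135, and Hadh, 0.0245). The calls behind the first 2 counts were Cpt1b, lost (adjusted p = 0.0663), and Acadm, gained (0.0354). Over all genes this voom fit called 550, 2167 and 1078 in those 3 comparisons, where edgeR called 282, 1567 and 466. Cpt2 was lost for KO_ERRb_DBDm6 against KO_mock (0.0722), Acadm gained against WT_mock (0.0403), and Hadha gained as lower for KO_ERRb_AF2M6 against KO_ERRb_wt (0.0362). KO_ERRg_wt, with 1 library per clone, had no such fit. With only library 2 of each clone, an alternative chosen after seeing the data, KO_ERRb_wt had 0 higher than KO_mock and 0 lower than WT_mock. Against KO_ERRb_wt, KO_ERRb_DBDm3 and KO_ERRb_AF2M6 then had 0 lower, KO_ERRb_DBDm6 3 higher and KO_ERRg_wt 5 higher. KO_ERRg_wt had 0 higher than KO_ERRb_DBDm6.

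Leaving out each clone in turn, where the lone clone of a group is assumed to vary like the others, gave 0 to 1 higher and 2 to 5 lower for KO_mock against WT_mock. KO_ERRb_wt had 0 to 2 higher than KO_mock, and 0 to 1 higher and 0 to 1 lower than WT_mock. Against KO_mock, members higher were 0 to 3 for KO_ERRb_DBDm3, 5 to 9 for KO_ERRb_DBDm6, 2 to 3 for KO_ERRb_AF2M6 and 7 to 8 for KO_ERRg_wt. Against KO_ERRb_wt they were 1 to 3 (0 to 2 lower), 2 to 5, 3 to 3 (0 to 4 lower) and 3 to 8 in that order. In the added comparisons, KO_ERRb_DBDm6 had 0 to 3 higher than KO_ERRb_DBDm3, 0 to 1 than KO_ERRb_AF2M6 and 2 to 5 than WT_mock. KO_ERRg_wt had 0 to 5 higher than KO_ERRb_DBDm6 and 2 to 7 than WT_mock. The joint test called 9 to 10.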
